A study of Mus musculus with 8 samples.

Results

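The genes described here are the glycolytic genes *Hk1*, *Gpi1*, *Pfkp*, *Aldoa*, *Tpi1*, *Gapdh*, *Pgk1*, *Pgam1*, *Eno1* and *Ldhb*, chosen by symbol. Of these 10 genes, 9 were listed in every library and were tested among 13968 genes, and the level of *Hk1* was not analysed here. Polyadenylated RNA had been measured in 8 Smart-seq2 libraries of 15 pooled mouse oocytes each, with 2 libraries in each of 4 groups. The first group was fully grown oocytes arrested at the germinal vesicle stage (GV). The second was oocytes that had matured in culture to metaphase II (MII). The other groups were MII oocytes that had been microinjected with cRNA for Myc-tagged wild-type BTG4 (Btg4wt) or for a BTG4 whose neighbouring threonine and serine phosphosites were changed to alanine (Btg4tm). All oocytes came from superovulated 6-week-old female ICR (CD1) mice, an outbred stock. The injected oocytes kept their own *Btg4* gene, so that both injected groups overexpressed BTG4 on a wild-type background. The paper states that either injected form seemed to lower the amount of endogenous BTG4, and leaves this to be clarified. The labels do not tie a library to a mouse or a culture, and p-values therefore measure the spread between these libraries, which may be technical.

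Glycolysis turns glucose into pyruvate. Its upper steps phosphorylate the sugar and split it into a pair of triose phosphates, and its lower steps oxidise the triose phosphates and return ATP. Lactate dehydrogenase interconverts pyruvate and lactate. Fully grown mouse oocytes take up little glucose and use pyruvate and lactate as their main fuels, while the cumulus cells around them carry out glycolysis. BTG4 is an adaptor that brings the CCR4-NOT deadenylase to maternal mRNAs, which lose their poly(A) tails and are degraded during maturation.

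Values are scaled TPM, that is deposited TPM (transcripts per unit of library, corrected for length) after scaling by the median of ratios, and they are levels per transcript length. A TPM is a share of a library made from oligo(dT)-primed RNA, so fewer molecules, a shorter poly(A) tail and a smaller share of the RNA cannot be told apart. Calls rest on limma and required an absolute log2 fold change over 1, on the log2(scaled TPM + 1) scale, together with a p-value under 0.05 after Benjamini-Hochberg adjustment over all genes tested. Replicate libraries correlated with Pearson's r between 0.982 and 0.987 across the genes tested. Of 15 oocyte markers 14 were listed, with summed levels of 37121 to 52192 scaled TPM per library. Of 22 cumulus and granulosa markers 9 were listed in every library, while *Cyp11a1* and *Fshr* were listed for the injected oocytes only. The summed levels of these 9 were 38.3 to 39.1 in GV, 48.3 to 52.2 in MII, 48.6 to 49.8 in Btg4wt and 39.3 to 43.8 in Btg4tm. Most of that sum came from *Cyp19a1* (15.7 to 26.8) and *Nr5a2* (8.97 to 20.9), and *Ptgs2*, *Star*, *Lhcgr*, *Hsd3b1* and *Col4a1* stayed between 0.0640 and 1.35. *Kitl* was between 2.05 and 5.86, with its higher values in MII and Btg4wt. *Inha* was at 4.37 and 2.11 in GV, 0 and 0.532 in MII, 1.88 and 1.09 in Btg4wt and 9.83 and 5.18 in Btg4tm, and it was the marker called, lower in MII than in GV and higher in Btg4tm than in Btg4wt (limma, adjusted p = 0.0048 and 0.0061). With the highest pair of markers of each library left out, the sum was 7.54 to 9.91 in GV, MII and Btg4wt. It was 14.7 and 11.6 in Btg4tm. The pair was *Cyp19a1* and *Nr5a2*, except in the first Btg4tm library. There *Cyp19a1* and *Inha* (9.83) were left out and *Nr5a2* was kept. The part of cumulus RNA in the results below was not tested.

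In GENCODE M21 (GRCm38) the genes of the upper pathway lie as follows: *Gpi1* at chr7:34201330-34230336, *Pfkp* at chr13:6579768-6648777, *Aldoa* at chr7:126795234-126800751 and *Tpi1* at chr6:124810586-124814296. Those of the lower pathway are *Gapdh* at chr6:125161715-125166467, *Pgk1* at chrX:106187100-106203699, *Pgam1* at chr19:41911923-41918660, *Eno1* at chr4:150236721-150248879 and *Ldhb* at chr6:142490249-142507957. *Pgk1*, *Pgam1* and *Eno1* lie on the plus strand and the others on the minus strand, and the authors counted reads over the exons of each gene.

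*Gapdh* is the usual internal control of RT-qPCR and served as such in the study, so the sequences of its primers are shown first. All 3 were found in the *Gapdh* transcript of the GENCODE M21 annotation (GRCm38). In lower case and 5′ to 3′, the RT-qPCR primers and the gene-specific primer of the poly(A) tail assay were as follows.
Gapdh forward: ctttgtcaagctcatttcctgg
Gapdh reverse: tcttgctcagtgtccttgc
Gapdh tail assay: actgagcaagagaggcccta
The forward primer lies in the coding region at bases 1152 to 1173 of the transcript. The reverse primer lies in the 3′ UTR at bases 1266 to 1284, and the tail assay primer in the 3′ UTR at bases 1274 to 1293. The forward primer was found without a mismatch in 98 other annotated genes, the reverse primer in 4 and the tail assay primer in 0. Both RT-qPCR primers occurred in order in 4 other genes (*Gm10358*, *Gm3272*, *Gm3839* and *Gm7336*), with a product of 133 bases in each, which is the length of the *Gapdh* product. Of these 4 genes only *Gm7336*, a processed pseudogene, was listed, at 0 to 0.379 TPM.

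The next sequences show how near a pseudogene can lie to a gene of the pathway. Here 30 coding bases of *Ldhb* (GRCm38, chr6:142505499-142505528, minus strand, bases 124 to 153 of the transcript) are set above the same bases of its processed pseudogene *Ldhb-ps* (chr19:21937392-21937421, plus strand). They are the stretch of that length with the most mismatches, and capitals mark the 3 bases that differ.
Ldhb: aaggagaagctcattgcGtcCgttgcagaT
Ldhb-ps: aaggagaagctcattgcAtcAgttgcagaA
Over the whole length of the pseudogene, 1002 bases aligned with 20 mismatches, an identity of 98.0%.

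The level of *Gapdh* was low for a gene often treated as abundant. It was 10.4 and 13.5 scaled TPM in the GV libraries, 9.31 and 11.0 in the MII libraries, 14.0 and 11.2 in the Btg4wt libraries and 9.72 and 10.7 in the Btg4tm libraries. The groups overlapped, apart from the Btg4wt libraries, which lay above those of MII and of Btg4tm. In GV oocytes 53.8% of the genes tested had a lower mean than *Gapdh*. The annotated exons of *Gapdh* together span 2.91 times the length of its main transcript. Its level and rank therefore depend on the gene length behind the TPM, which is not given. *Ldhb*, by contrast, ranked 4 from the top of the genes tested in GV, MII and Btg4tm and 5 in Btg4wt, and took 1.22% of the GV libraries and 1.93% of the Btg4tm libraries.

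The order of the mean levels in GV was *Ldhb* (11264), *Aldoa* (128), *Tpi1* (57.0), *Eno1* (28.4), *Pgk1* (27.9), *Gpi1* (19.6), *Gapdh* (11.9), *Pgam1* (4.98) and *Pfkp* (3.88). Among these neighbours only *Eno1* and *Pgk1* overlapped between their libraries. The order between genes may change with the gene lengths behind the TPM, which are not given. All exons of a gene span 3.23 times the main transcript for *Pfkp*, 2.91 for *Gapdh*, 2.65 for *Eno1* and 2.24 for *Gpi1*. The same ratio is 1.93 for *Aldoa*, 1.71 for *Tpi1*, 1.23 for *Pgk1*, 1.20 for *Ldhb* and 1.12 for *Pgam1*. In MII the order below *Ldhb* and *Aldoa* became *Pgk1* (16.4), *Eno1* (13.5), *Gapdh* (10.1), *Pgam1* (4.40), *Tpi1* (3.59), *Gpi1* (1.93) and *Pfkp* (1.25). There *Pgk1* overlapped with *Eno1*, and *Pgam1* with *Tpi1*. *Tpi1* thus stood at the third place in GV and at the seventh in MII, and *Gapdh* moved from the seventh to the fifth place with nearly the same level. In Btg4wt the order below *Aldoa* was *Eno1*, *Pgk1*, *Gapdh*, *Pgam1*, *Gpi1*, *Tpi1* and *Pfkp*, where *Gpi1* and *Tpi1* overlapped, and in Btg4tm it was *Tpi1*, *Eno1*, *Pgk1*, *Gpi1*, *Gapdh*, *Pgam1* and *Pfkp*, with no overlap between neighbours.

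Across the 8 libraries *Gapdh* had the narrowest range of the genes of the pathway, its highest library lying 1.51-fold above its lowest. The same ratio was 1.90 for *Ldhb*, 1.94 for *Pgk1*, 2.18 for *Pgam1*, 2.68 for *Aldoa*, 3.01 for *Eno1*, 3.50 for *Pfkp*, 10.7 for *Gpi1* and 17.6 for *Tpi1*. The summed level of the 8 genes other than *Ldhb* was 266 and 298 in GV, 103 and 109 in MII, 161 and 150 in Btg4wt and 248 and 247 in Btg4tm. *Ldhb* alone was 35.5 to 44.9 times that sum in the GV libraries and 169 to 195 times in the MII libraries.

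**Figure D1:**
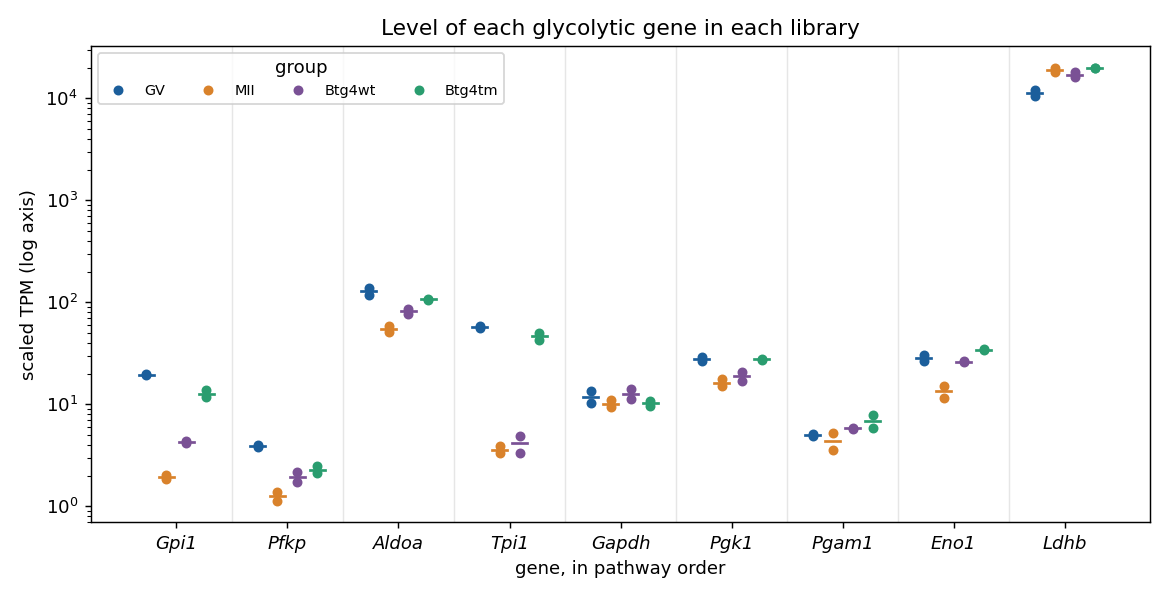
Level of each gene in each library, in scaled TPM on a log axis, with genes in pathway order, 2 points per group and a bar at the group mean. *Tpi1* and *Gpi1* sit far lower in MII and Btg4wt than in GV, *Gapdh* stays between 9.31 and 14.0 in all 8 libraries, and *Ldhb* lies between 10555 and 20071.

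The comparison of MII with GV asks which transcripts changed during maturation in culture. Of the 9 genes tested, 5 fell (*Gpi1*, *Pfkp*, *Aldoa*, *Tpi1* and *Eno1*) and 0 rose, whereas 24.0% of all genes tested were called lower and 12.5% higher. The genes that fell by the most were *Tpi1* and *Gpi1*, both of the upper pathway. The median log2 fold change of the 9 genes was -1.03 beside -0.0017 over all genes tested.

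*Gpi1* encodes glucose-6-phosphate isomerase, which turns glucose-6-phosphate into fructose-6-phosphate. It was at 19.4 and 19.7 scaled TPM in GV and at 1.84 and 2.02 in MII. The level in MII was 9.87% of that in GV. The log2 fold change was -2.81 ± 0.17 (SE, n = 2 libraries per group; limma, adjusted p = 4.1e-06).

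*Pfkp* encodes a subunit of phosphofructokinase, the committed step of the pathway. Its levels were low in every library, at 3.79 and 3.98 in GV and 1.37 and 1.14 in MII. Both MII libraries lay below both GV libraries, and the log2 fold change was -1.12 ± 0.20 (limma, adjusted p = 0.0016). Under quantile normalization it was -0.80, below the fold minimum.

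*Aldoa* encodes aldolase A, which splits fructose-1,6-bisphosphate. It was the most abundant of the genes after *Ldhb*, at 119 and 137 scaled TPM in GV and 51.2 and 58.4 in MII. The groups did not overlap, and the log2 fold change was -1.21 ± 0.12 (limma, adjusted p = 6.0e-05).

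*Tpi1* encodes triosephosphate isomerase, which interconverts the triose phosphates that aldolase releases. It was at 55.5 and 58.4 in GV and at 3.88 and 3.31 in MII, a 15.9-fold lower mean. The MII level was 6.31% of the GV level, the lowest share of the 9 genes, with a log2 fold change of -3.66 ± 0.19 (limma, adjusted p = 1.9e-06).

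*Gapdh*, glyceraldehyde-3-phosphate dehydrogenase, carries out the oxidising step of the pathway. Its log2 fold change from GV to MII was -0.21 ± 0.19 with a 95% interval of -0.64 to 0.23 (limma, adjusted p = 0.37). The groups overlapped, and the sign turned under quantile normalization (0.12).

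*Pgk1* encodes phosphoglycerate kinase, the first ATP-yielding step. It was at 26.6 and 29.3 in GV and 15.1 and 17.6 in MII, with no overlap. Its log2 fold change of -0.74 ± 0.15 had an adjusted p of 0.0029 in limma but missed the fold minimum. *Pgam1*, phosphoglycerate mutase, was at 5.10 and 4.86 in GV and 5.23 and 3.57 in MII. These values overlapped, and the log2 fold change was -0.16 ± 0.22 with an interval of -0.67 to 0.34 (limma, adjusted p = 0.54).

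*Eno1* encodes enolase, which forms phosphoenolpyruvate. It was at 26.3 and 30.5 in GV and 15.3 and 11.7 in MII, with a log2 fold change of -1.03 ± 0.16 (limma, adjusted p = 0.00055). This value lay at the fold minimum, and it was -0.93 without the second GV library, -0.85 without the second MII library and -0.77 under quantile normalization, each with an adjusted p under 0.05.

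*Ldhb* encodes the LDH subunit that prevails in tissues that use lactate, such as heart. It went the other way, from 11973 and 10555 in GV to 20071 and 18333 in MII. Both MII libraries lay above both GV libraries. The log2 fold change was 0.77 ± 0.12 (limma, adjusted p = 0.00068), which missed the fold minimum, but it was 0.06 under quantile normalization and turned to -1.45 when libraries were scaled to the mitochondrially encoded genes. That last scaling moved the median of all genes to -1.74, against which *Ldhb* lay at 0.29 and *Tpi1* at -3.81.

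Btg4wt and MII oocytes were compared to see what injection and overexpression of wild-type BTG4 did. Of the 9 genes 0 were called in either direction, and of all genes tested 0% were called higher and 0% lower. At an unadjusted p under 0.05 limma gave 3 of the 9 genes and 1655 of the 13968 genes. Of the 9 log2 fold changes 8 were above 0, with a median of 0.36 beside 0.02 over all genes.

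The 3 genes with unadjusted p under 0.05 were higher in both Btg4wt libraries than in both MII libraries. *Gpi1* was at 4.40 and 4.17 in Btg4wt, and its log2 fold change was 0.85 (limma, adjusted p = 0.18). *Aldoa* was at 86.8 and 76.7, with 0.57 (adjusted p = 0.19), and *Eno1* was at 26.1 and 26.4, with 0.93 (adjusted p = 0.12). *Tpi1*, at 4.93 and 3.37, overlapped with MII and had a log2 fold change of 0.15 with an interval of -0.28 to 0.58 (adjusted p = 0.80). *Gapdh* had a log2 fold change of 0.29 with an interval of -0.15 to 0.72, and *Ldhb*, at 16281 and 17969, one of -0.17 with an interval of -0.44 to 0.11.

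The comparison of Btg4tm with Btg4wt asks what the phosphosite mutation did when both forms were overexpressed. Of the 9 genes 2 rose, *Tpi1* and *Gpi1*, and 0 fell, whereas 18.1% of all genes tested were called higher and 7.94% lower. The median log2 fold change of the 9 genes was 0.38, beside 0.01 over all genes. Both genes that rose were among the 5 that fell from GV to MII. These comparisons share no library, but the scaling and the estimate of the spread rest on all 8 libraries. The same overlap was not counted over all genes here. In its own calls the paper reports that most transcripts raised by the mutant were lost in normal maturation, so the overlap is not particular to these genes.

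*Tpi1* was at 42.9 and 50.2 scaled TPM in Btg4tm and at 4.93 and 3.37 in Btg4wt, an 11.2-fold difference of the means. The log2 fold change was 3.22 ± 0.19 (limma, adjusted p = 5.8e-06), with 3.00 and 3.44 as the extremes when 1 library was left out. *Gpi1* was at 13.7 and 11.7 in Btg4tm against 4.40 and 4.17, with a log2 fold change of 1.37 ± 0.17 (limma, adjusted p = 0.00027). As a share of the fall from GV to MII on the log2 scale, the rise came to 88.0% for *Tpi1* and 48.8% for *Gpi1*.

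Smaller log2 fold changes were measured for *Aldoa*, *Pgk1*, *Eno1* and *Pfkp*. *Aldoa*, at 109 and 105 in Btg4tm, had a log2 fold change of 0.38 ± 0.12 (limma, adjusted p = 0.031), below the fold minimum. *Pgk1*, at 27.4 and 27.6 against 16.9 and 20.7, had one of 0.54 ± 0.15 (adjusted p = 0.018), also below it. *Eno1*, at 35.1 and 33.7, had one of 0.38 ± 0.16 (adjusted p = 0.076), although both libraries lay above those of Btg4wt. *Pfkp*, at 2.46 and 2.10 against 2.18 and 1.73, overlapped and had one of 0.15 with an interval of -0.31 to 0.62 (adjusted p = 0.57).

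The difference for *Gapdh* was in the other direction, with a log2 fold change of -0.28 ± 0.19 (limma, adjusted p = 0.26), and turned to 0.72 under scaling to the mitochondrially encoded genes, where the median of all genes was 0.88. *Pgam1* was at 7.77 and 5.85 against 5.73 and 5.92, values that overlapped. *Ldhb* was at 20006 and 19763 in Btg4tm, with a log2 fold change of 0.22 and an interval of -0.06 to 0.49 (adjusted p = 0.17).

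**Figure D2:**
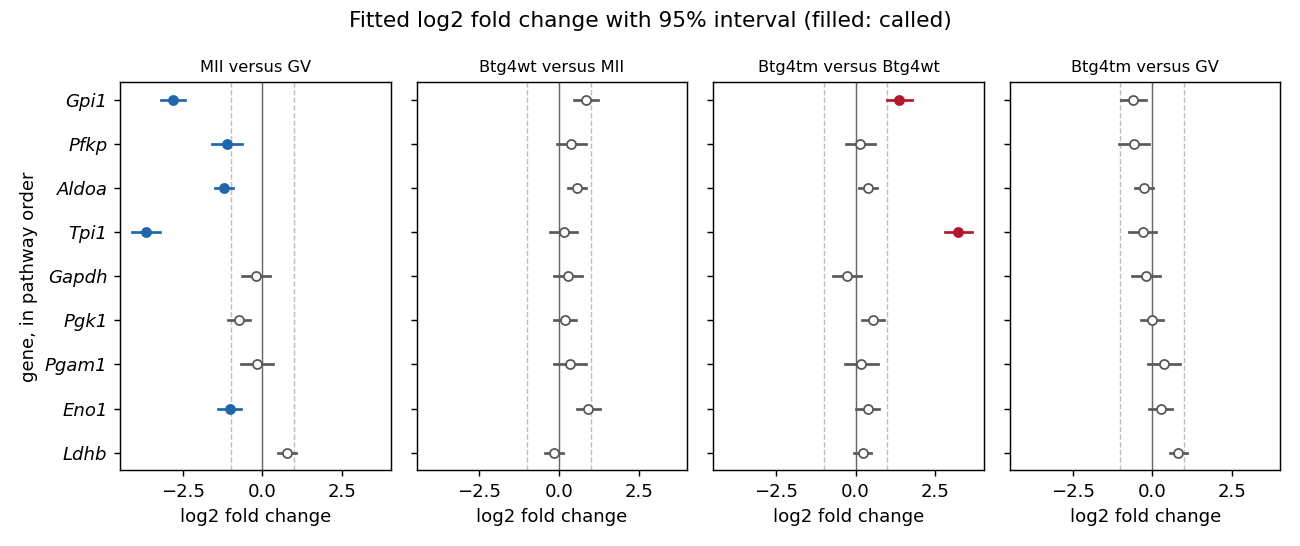
Fitted log2 fold change of each gene with its 95% interval in the 4 comparisons, with filled points for called genes and dashed lines at the fold minimum of 1. MII versus GV has 5 filled points on the left, Btg4tm versus Btg4wt has *Tpi1* (3.22) and *Gpi1* (1.37) filled on the right, and the other panels have none.

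Btg4tm was compared with GV to see how far the mutant oocytes stood from the stage before maturation. This comparison shares its GV libraries with that of MII and its Btg4tm libraries with that of Btg4wt. Of the 9 genes 0 were called in either direction, with 1.02% of all genes called higher and 1.02% lower. An unadjusted p under 0.05 was given by limma for 3 of the 9 genes and for 4147 of the 13968 genes. *Tpi1* in Btg4tm was at 81.7% of its GV level, *Aldoa* at 83.3% and *Pgk1* at 98.6%. *Gpi1* was at 65.0% and had a log2 fold change of -0.59 ± 0.17 (limma, adjusted p = 0.059), and *Pfkp* was at 58.8% with -0.57 ± 0.20 (adjusted p = 0.10). *Ldhb* was at 177% of GV, with a log2 fold change of 0.82 ± 0.12 (limma, adjusted p = 0.0071) that missed the fold minimum and was 0.25 under quantile normalization. For *Gapdh* the log2 fold change was -0.20 with an interval of -0.64 to 0.24.

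**Figure D3:**
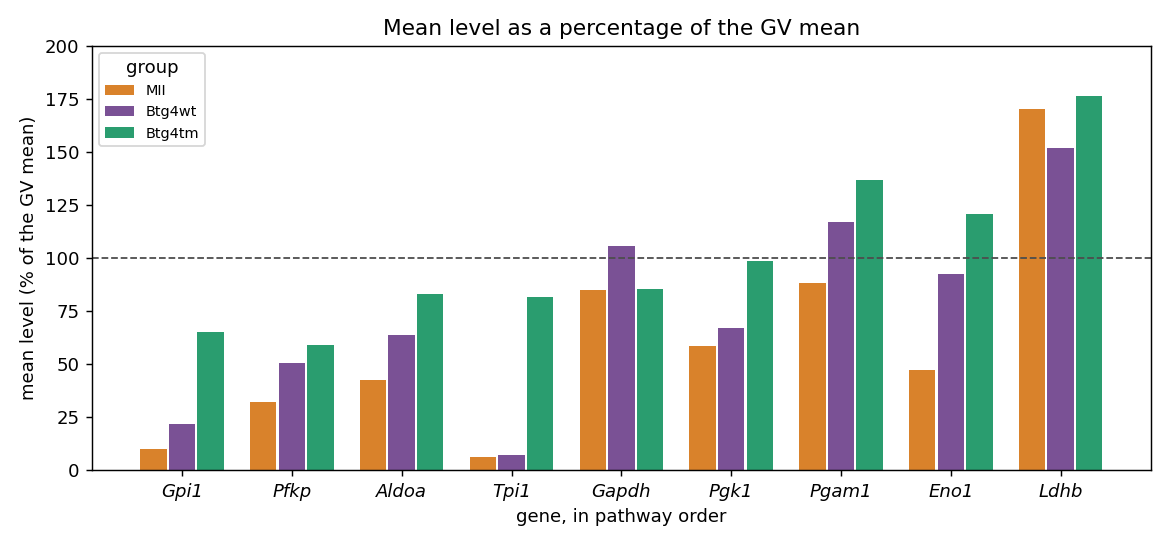
Mean level in MII, Btg4wt and Btg4tm as a percentage of the GV mean (dashed line at 100%), for each gene in pathway order. *Tpi1* stands at 6.31% in MII, 7.29% in Btg4wt and 81.7% in Btg4tm, while *Ldhb* is above 150% in all of them.

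Several of these genes share most of their sequence with other annotated genes, and the submitters' counting dropped reads with a low mapping quality. The share of a gene's 50-base windows that also occur in another annotated gene was 82.5% for *Gapdh*, 72.2% for *Eno1*, 68.0% for *Pgk1*, 41.5% for *Pgam1*, 27.0% for *Ldhb*, 25.3% for *Gpi1*, 17.1% for *Pfkp*, 13.9% for *Aldoa* and 7.5% for *Tpi1*. For *Gapdh* these windows lay in 222 other genes, of which 213 were pseudogenes. *Tpi1*, with the largest change, had the lowest share. The levels of the genes with high shares are uncertain, and the part of lost reads in them was not tested. Divided by the share of windows found in no other gene, the mean level of *Gapdh* would be 68.1 scaled TPM in GV and 58.0 in MII, and that of *Eno1* 102 and 48.4.

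**Figure D4:**
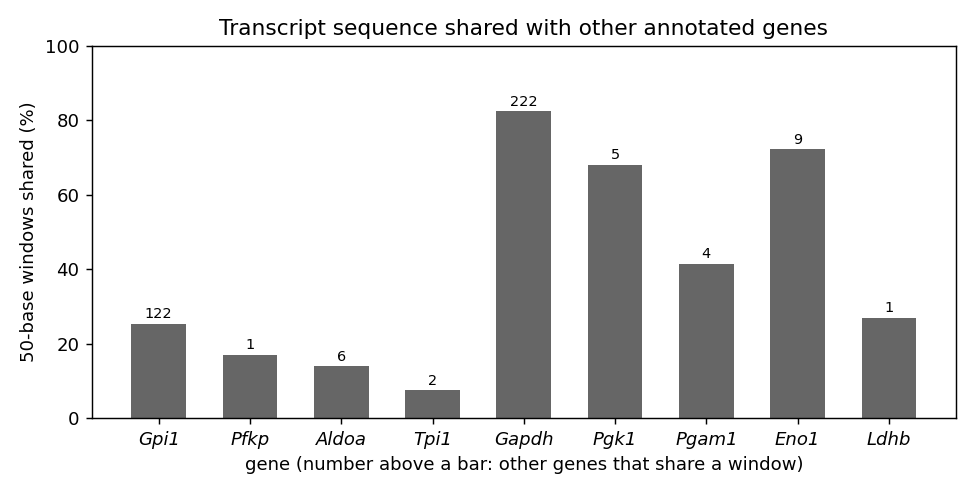
Percentage of the 50-base windows of each gene's main transcript that also occur in another annotated gene, with the number of such genes above each bar. *Gapdh* has 82.5% in 222 genes, and *Tpi1* has 7.5% in 2 genes.

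The listed genes that share windows with *Gapdh* held more TPM than *Gapdh* itself. The 18 listed pseudogenes with at least 1% of its windows summed to 68.7 to 118 TPM as deposited, beside 9.08 to 14.9 for *Gapdh*, a ratio of 6.72 to 10.3 over the 8 libraries. Copies listed in one set of tables only entered the other set at 0. The processed pseudogene *Gm13394*, which matched *Gapdh* over 1000 bases with 1 mismatch, was listed at 14.4 to 32.7 TPM, above *Gapdh* in all 8 libraries. *Gm5177*, which shares 2.3% of the windows, was listed at 22.1 to 40.3 TPM. *Gm8529*, which shares 1.2%, was listed at 8.60 to 24.2 TPM. Much of the sum thus came from pseudogenes that share few windows with *Gapdh*.

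*Eno1* shares 70.5% of its windows with *Eno1b*, a protein-coding copy with 99.5% identity over 1652 bases, and 52.8% with the pseudogene *Gm4735*. *Eno1b* was at 13.6 and 17.2 scaled TPM in GV, 6.25 and 5.36 in MII, 14.1 and 13.1 in Btg4wt and 22.1 and 17.7 in Btg4tm. Its levels thus were lowest in MII and highest in Btg4tm, as for *Eno1*. The summed TPM of the 3 listed copies of *Eno1* was 1.15 to 1.47 times that of *Eno1* in every library. Reads of *Eno1* and *Eno1b* may have been split between them, so both levels are uncertain. *Pgk1-rs7*, a pseudogene with 67.9% of the windows of *Pgk1*, was listed for GV and MII only, at 0.243 to 0.934 TPM. *Pfkp* shares 17.1% of its windows with the overlapping gene *Pitrm1*, and counting without strand leaves those reads unassigned between the pair.

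*Ldhb-ps* was listed at 2654 to 4945 TPM, which was 0.227 to 0.250 of the TPM of *Ldhb* in each library. Reads of *Ldhb* may have been assigned to *Ldhb-ps*, which was not tested, so the level of the pseudogene is uncertain. The log2 levels of both correlated with Pearson's r of 0.994 over the 8 libraries, the highest value among the 6876 genes compared, all with means of 10 scaled TPM or more. The next were *Tubg2* (0.985) and *Fam216a* (0.981). For *Gapdh* the most alike were *Jazf1* (0.926), *Nr2e1* (0.908) and *Ccser1* (0.884). These values describe 8 libraries that fall into groups, and no test was made of them.

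**Figure D5:**
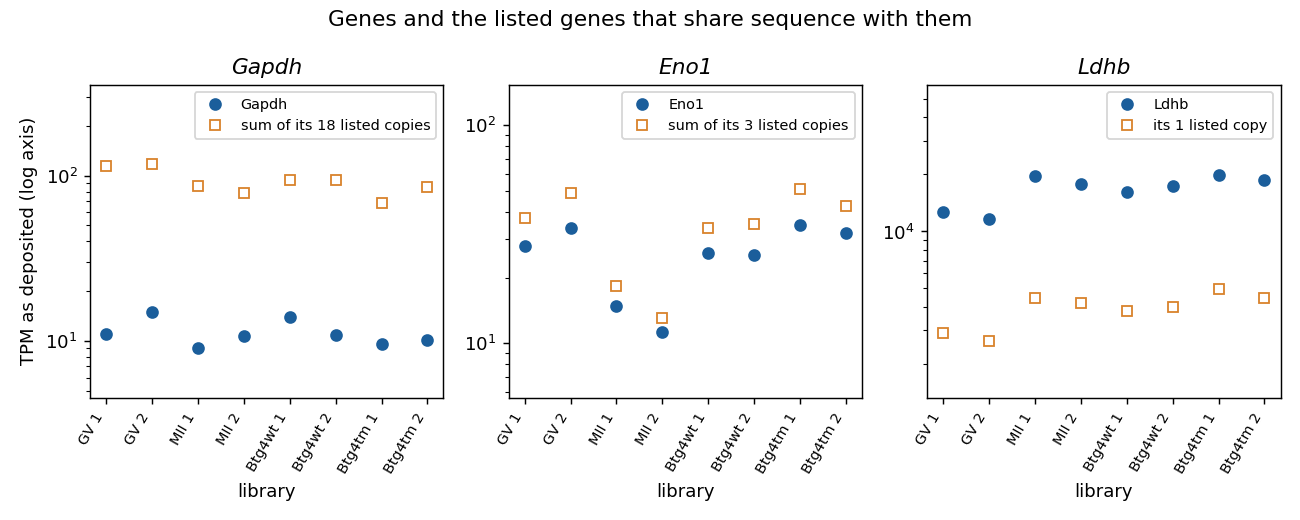
TPM as deposited, on a log axis, of *Gapdh*, *Eno1* and *Ldhb* (filled circles) and the sum of their listed copies (open squares) in each of the 8 libraries. The copies of *Gapdh* sum to 68.7 to 118 TPM, above the gene itself in every library, while *Ldhb-ps* follows *Ldhb* at 0.227 to 0.250 of its level.

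The ends of the transcripts were examined because oligo(dT) priming starts at the poly(A) tail. The last 50 bases of the main transcript held the poly(A) signal AATAAA or ATTAAA in 7 of the 10 genes, compared with 77.9% of 11094 protein-coding genes tested. The cytoplasmic polyadenylation element, read as TTTTAT or TTTTAAT on the transcript strand, was found in the last 100 bases of 0 of the 10 genes and of 19.4% of the 11094. The last 30 bases are shown for a gene that fell (*Gpi1*, chr7:34201330-34201359, minus strand), for *Gapdh* (chr6:125161854-125161883, minus strand) and for *Ldhb* (chr6:142490249-142490278, minus strand), with the signal in capitals (GRCm38, GENCODE M21).
Gpi1: gatggccagtcAATAAAaagacttggtaca
Gapdh: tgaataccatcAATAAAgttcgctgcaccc
Ldhb: tgatcaAATAAAgttagcaattgcagcata
The 3 genes without either signal in these annotated ends were *Hk1*, *Pfkp* and *Tpi1*, of which *Hk1* was not among the genes tested. Of the 5 genes that fell from GV to MII, *Gpi1*, *Aldoa* and *Eno1* held AATAAA, as did *Gapdh*, *Pgk1*, *Pgam1* and *Ldhb*.

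The remaining isozymes of each step were set beside these genes. Their counts and those of the gene lists that follow stand against the same shares of all genes tested, 24.0% called lower and 12.5% called higher for MII against GV, and 18.1% higher and 7.94% lower in Btg4tm than in Btg4wt. Of 24 other isozymes, with *Bpgm* counted among them, 11 were listed in every library and tested, and from GV to MII 4 fell and 1 rose. *Pkm*, pyruvate kinase, was the isozyme of the last ATP-yielding step that was listed, at 132 and 137 scaled TPM in GV, 28.2 and 36.1 in MII, 41.4 and 31.6 in Btg4wt and 152 and 98.3 in Btg4tm. It fell from GV to MII by 2.04 on the log2 scale (limma, adjusted p = 8.6e-05) and was 1.73 higher in Btg4tm than in Btg4wt (adjusted p = 0.00034). *Hk2*, a hexokinase, was named after its values were seen, since the level of *Hk1* was not analysed here. *Hk2* was at 2.06 and 1.51 in GV and 7.05 and 7.84 in MII, and rose by 1.61 (limma, adjusted p = 0.00015).

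Lactate dehydrogenase transcripts were almost entirely *Ldhb*, which made 99.6% to 99.8% of the summed *Ldha*, *Ldhb* and *Ldhc* level in GV. *Ldha*, the muscle-type subunit, was between 0.167 and 1.55 scaled TPM in all libraries. *Ldhc*, the germ-cell subunit, was at 25.8 and 42.5 in GV and 0.571 and 4.47 in MII, and fell by 3.54 on the log2 scale (limma, adjusted p = 0.0012). *Bpgm*, which makes and removes 2,3-bisphosphoglycerate, was at 1027 and 1175 in GV and 1719 and 1733 in MII. Of the summed level of *Bpgm* and *Pgam1*, *Bpgm* held over 99% and *Pgam1* 0.21% to 0.50%. The genes encode different enzymes, so these are not shares of the glycolytic mutase step. *Pgam2* was not listed.

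Among 9 regulators 8 were tested, of which 4 fell and 2 rose from GV to MII, and 3 rose in Btg4tm over Btg4wt. *Fbp1*, the gluconeogenic enzyme that opposes phosphofructokinase, fell from 228 and 212 to 37.1 and 43.2 scaled TPM, and was at 143 and 172 in Btg4tm against 44.1 and 45.9 in Btg4wt. *Gckr*, the glucokinase regulator, and *Tigar*, a fructose-2,6-bisphosphatase, fell by 2.24 and 1.36 on the log2 scale (limma, adjusted p = 1.3e-05 and 0.00016). *Hif1a*, a transcription factor for glycolytic genes, rose from 54.4 and 66.4 to 154 and 152, by 1.34 (limma, adjusted p = 3.2e-05). 

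Of 10 transporters 6 were tested, of which 2 fell from GV to MII and the same 2 rose in Btg4tm over Btg4wt. *Slc2a1*, the glucose carrier GLUT1, was at 28.6 and 20.9 in GV, 4.89 and 4.79 in MII, 7.19 and 7.36 in Btg4wt and 23.5 and 13.5 in Btg4tm. *Bsg*, the chaperone of the monocarboxylate carriers, was at 224 and 214 in GV, 45.4 and 71.1 in MII, 80.6 and 56.0 in Btg4wt and 193 and 200 in Btg4tm. In the pentose phosphate pathway 2 of 11 genes tested fell and 1 rose from GV to MII, and *G6pdx*, its entry enzyme, fell from 448 and 435 to 160 and 174.

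The genes of pyruvate entry and the TCA cycle, where the pathway's product goes, included larger falls. Of 32 tested, 14 fell and 1 rose from GV to MII (24.0% and 12.5% of all genes), and 10 rose and 1 fell in Btg4tm over Btg4wt (18.1% and 7.94% of all genes). *Mdh2*, mitochondrial malate dehydrogenase, was at 213 and 182 in GV, 8.65 and 12.7 in MII, 11.8 and 7.60 in Btg4wt and 174 and 171 in Btg4tm. *Idh3g*, a subunit of isocitrate dehydrogenase, fell by 4.19 on the log2 scale and was 3.85 higher in Btg4tm than in Btg4wt (limma, adjusted p = 3.5e-05 and 9.0e-05). Cytosolic *Mdh1*, at 117 and 119 in GV and 205 and 209 in MII, was higher in MII by 0.81, which missed the fold minimum (limma, adjusted p = 0.00020).

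*Gapdh* was also set beside other genes that serve as RT-qPCR references. From GV to MII *Rpl19* and *Tubb5* fell and *Hprt* rose. *Rpl19* fell from 526 and 589 to 10.3 and 10.9 scaled TPM, and its highest library lay 57.2-fold above its lowest. *Hprt* rose from 185 and 174 to 600 and 603. The range over the 8 libraries was narrower than that of *Gapdh* for *Tbp* (1.24-fold, 31.6 to 39.0 scaled TPM), and *Sdha* (1.57-fold) and *B2m* (1.69-fold) had somewhat wider ranges. *Tbp* was named after its values were seen.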

How the data were processed

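The deposited values were TPM per gene symbol, in tables of 17384 genes for the GV and MII libraries and 16448 genes for the injected ones. Per the labels and the study's methods, the authors trimmed reads with Trim Galore 0.6.10, aligned them to GRCm38 with HISAT2 2.2.0 and counted them on GENCODE vM25 exons with featureCounts 2.0.6, without strand and with a minimum mapping quality, before they computed TPM. The gene lengths behind the TPM and the filter on listed genes are not given in the sources used here. The labels mention more samples per group than the 2 analysed here. Listed TPM summed to 996199 to 998615 per library. TPM keep no depth, so precision rests on 2 libraries per group.

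Genes present in both sets of tables (15962) were put on one scale by a median of ratios, and log2(scaled TPM + 1) was fitted with limma 3.58.1 in R 4.3.3 (eBayes with trend) over all 8 libraries for 13968 genes that reached 1 TPM in 2 or more libraries. On simulated data the fit recovered 200 of 200 changed genes for MII versus GV, with 7 unchanged genes called. Every planted change was well over the fold minimum and lay in a gene of higher level. High recovery was thus built in. It gives no measure for changes near the fold minimum or for genes as low as *Pfkp* and *Pgam1*. Genes named from the other lists had a mean of at least 100 scaled TPM in a group, or were among the 4 largest called changes of a comparison with a mean of at least 10, apart from those said to be named after their values were seen and gene copies. From these, examples are printed, and 1 gene of the lists is not reported here. The genes and lists were chosen with earlier results of these data known.

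Shared 50-base windows, primer sites and transcript ends were searched in the transcripts of GENCODE M21 (GRCm38), where 2 gene identifiers carry the symbol *Aldoa* and the one with the longer coding region was taken. The fit was repeated with each library left out in turn, with unscaled TPM, with quantile normalization, with libraries scaled to mitochondrially encoded genes, with a pseudocount of 0.1, with a TPM minimum of 5 or none, with a replicate block, without the trend, without a fold minimum, and on the 4 libraries compared.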

Additional observations from a re-analysis of the deposited data

How the results depend on the processing

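TPM show shares of a library at unknown depth, and 2 libraries per group limit every value. The scaling mattered most. Scaling to the mitochondrially encoded genes moved the median log2 fold change of all genes to -1.74 for MII versus GV, 0.88 for Btg4tm versus Btg4wt, 0.39 for Btg4wt versus MII and -0.64 for Btg4tm versus GV. It then called 9 of the 9 genes lower in MII, 1 higher in Btg4wt than in MII, 7 higher in Btg4tm than in Btg4wt and 2 lower in Btg4tm than in GV. Of all 13968 genes it called 69 higher in Btg4wt than in MII and 2972 lower in Btg4tm than in GV. It turned the log2 fold change of *Ldhb* in MII versus GV (-1.45) and in Btg4wt versus MII (0.33), of *Gapdh* in Btg4tm versus Btg4wt (0.72), and of *Pgam1* (-0.17) and *Eno1* (-0.35) in Btg4tm versus GV. Quantile normalization called 3 genes lower in MII than in GV, and turned *Gapdh* (0.12) and *Pgam1* (0.19) in that comparison, *Pfkp* (-0.046) and *Pgam1* (-0.045) in Btg4tm versus Btg4wt and *Pgk1* (0.011) in Btg4tm versus GV. Over all genes, 1752 were called higher and 3351 lower in MII versus GV, against 3110 and 2710 with quantile normalization and 7 and 11403 with the mitochondrial scaling, and for Btg4tm versus Btg4wt the counts were 2534 and 1109, against 2088 and 1786 and 6089 and 69. Without a minimum fold change 1 gene was called higher and 6 lower in MII (29.8% and 32.8% of all genes), 4 higher in Btg4tm versus Btg4wt (26.2%) and 1 higher in Btg4tm versus GV (7.66%).

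With 1 library left out, 4 to 5 genes were called lower in MII and 2 higher in Btg4tm than in Btg4wt, and the left-alone library was assumed to vary like the other groups. The sign turned for *Pgam1* in MII versus GV without the second MII library (0.060; range -0.39 to 0.060), for *Tpi1* in Btg4wt versus MII without the first Btg4wt library (-0.071; range -0.071 to 0.37) and for *Pgk1* in Btg4tm versus GV without the second GV library (0.049; range -0.086 to 0.049). The cause was not tested. A replicate block left the counts at 5 lower in MII and 2 higher in Btg4tm than in Btg4wt and changed no other count of these genes. Deviations of same-numbered libraries correlated at -0.054 to 0.055, so that the numbers were not taken to pair the libraries.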
